A study of Solanum lycopersicum with 24 samples.

Results

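The rs2z35 mutant of tomato was compared with the wild type (WT) in leaves after heat stress (HS), on 3 rs2z35 HS and 3 WT HS libraries of the 24 libraries in the series. The question was which transcripts depend on RS2Z35 in the early heat response. Both groups came from excised leaves of 6-week-old plants of cultivar Moneymaker that were kept at 40 °C for 1 h. The rs2z35 plants carried a homozygous CRISPR-Cas9 frameshift in RS2Z35, caused by a single inserted or deleted base, and the WT plants carried no such mutation. Further libraries serve for comparison: rs2z35 control against WT control (25 °C, 1 h, 3 libraries each), rs2z36 HS (3 libraries), and the double mutant rs2z35 36 HS (3 libraries, made by crossing the single mutants). For a few genes, mean levels in rs2z36 control and rs2z35 36 control (3 libraries each) are also given. Libraries of polyadenylated RNA did not keep strand, and reads of genes that overlap in antisense cannot be told apart. The tested genes were the 23162 of 34075 listed genes with at least 10 reads in sum over the 12 HS libraries.

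RS2Z35 belongs to the serine/arginine-rich (SR) proteins, which bind pre-mRNA and help the spliceosome to choose splice sites. The RS2Z group is particular to plants and carries a pair of zinc knuckles beside its RNA-binding domain. During heat stress, plant cells induce heat shock proteins (HSPs), chaperones that bind unfolded proteins, under the control of heat stress transcription factors such as HSFA2. Gene counts, as used here, add up all transcripts of a gene and do not show which splice form is made.

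The 6 libraries held between 17674690 and 23929283 counts, with a median of 19601474. Replicates differed by more than sampling noise (chi-square divided by its degrees of freedom 7.96 to 25.4 in rs2z35 HS and 8.48 to 10.3 in WT HS), and all were counted as separate libraries. Replicate 2 of rs2z35 HS stood somewhat apart, with ratios of 23.8 and 25.4 to replicates 1 and 3, against 7.96 between these. CPM are counts scaled to library size, here with factors of TMM, a trimmed mean. These factors were from the 12 HS libraries for the distances and from all 24 libraries for all other CPM values. The root mean square distance in log2 CPM over 18150 genes was 0.29 to 0.41 between rs2z35 HS libraries. It was 0.28 to 0.43 between rs2z35 HS and WT HS libraries, and 0.31 to 0.33 between WT HS libraries. The distances between genotypes thus overlapped those within a genotype. Leaf mesophyll markers summed to 1963 to 3395 CPM in rs2z35 HS and 2016 to 3009 CPM in WT HS, those of glandular trichomes to 138 to 163 and 111 to 166 CPM, the 1 fruit or root marker to 16.8 to 38.7 and 24.7 to 45.3 CPM, and the 1 marker of dividing cells to 4.31 to 6.92 and 3.63 to 6.31 CPM. All these ranges overlapped between the genotypes. In bulk leaves, fewer cells of a type and less RNA per cell cannot be told apart.

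Few genes differed between rs2z35 HS and WT HS. A gene was called where its log2FC was above 1 or below -1 at an adjusted p under 0.01, which held for 7 genes (0.0302% of those tested), 6 of them higher in rs2z35 (0.0259%) and 1, RS2Z35 itself, lower (0.00432%). At an adjusted p below 0.05 and any fold, 22 genes passed (0.095%), of which 14 rose (0.0604%) and 8 fell (0.0345%). Adjusted p-values are from the quasi-likelihood test of edgeR, adjusted over all tested genes after Benjamini and Hochberg. The count of called genes was 4 without each of the WT HS libraries in turn, and the count at 0.05 was 7 to 13 without 1 library. Without replicate 2 of rs2z35 HS it was 13, and 3117 genes then had an unadjusted p below 0.05. Without adjustment, 1983 genes had a p below 0.05 (8.56%), 1021 higher and 962 lower in rs2z35, where 1158 would be expected by chance alone. With the replicate number as a block in the fit, the count was 1087, below that expectation. For 3324 genes (14.4%) the 3 rs2z35 libraries did not overlap the 3 WT libraries. The libraries were biological replicates from excised leaves of 6 plants. How the plants were divided among the libraries is not given in the sources used here, and the p-values measure the spread between these libraries. The authors had adjusted the HS counts for batch, so this is the spread after that adjustment. The p-values in HS may therefore be too small.

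The size of change that the data could have missed depended on the level of the gene. Of the 18148 genes with a mean of at least 1 CPM, 92.7% had a 95% interval of the log2FC that lay within -1 and 1. This held for 97.6% of 9508 genes between 10 and 100 CPM, for 84.8% of 6990 genes between 1 and 10 CPM and for only 9.48% of 5009 genes below 1 CPM. The median absolute log2FC of genes with at least 1 CPM was 0.12. Hence, for most genes below 1 CPM a change of 2-fold lay within the interval, whose median half-width was 1.51, while for most genes above 1 CPM it did not.

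**Figure D1:**
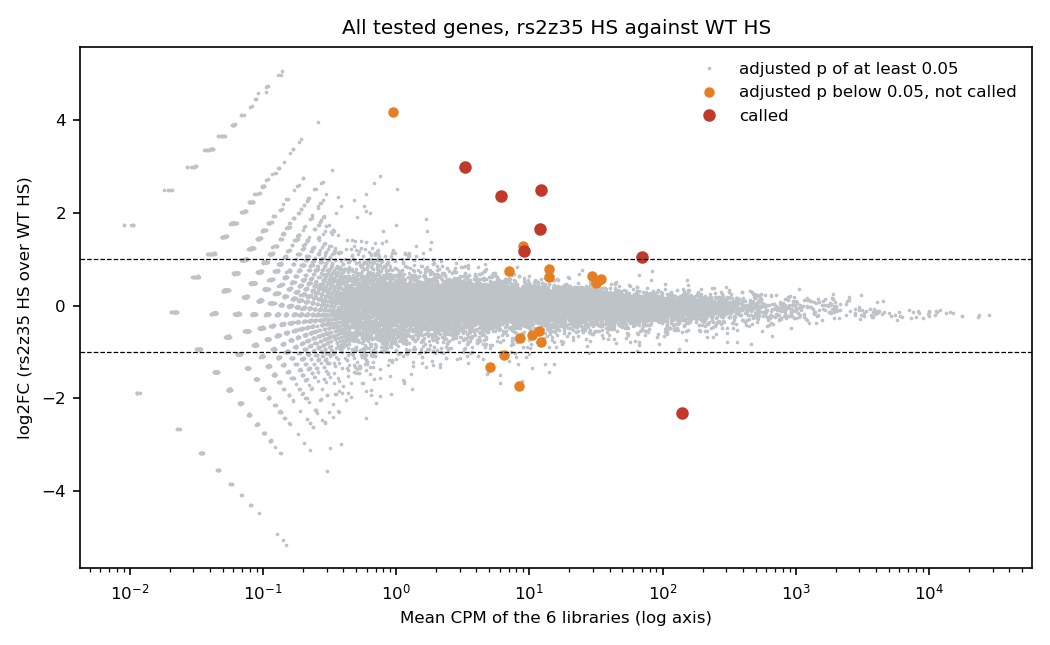
Each point is 1 tested gene, with its mean CPM over the 6 libraries (log axis) and its log2FC of rs2z35 HS over WT HS; dashed lines mark a log2FC of 1 and -1. The 7 called genes (red) have means above 1 CPM, 6 of them lie above the upper line, and the point far below the lower line is RS2Z35 with a log2FC of -2.32.

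The targeted gene was checked first. RS2Z35 (Solyc05g054920, chromosome 5), the SR splicing factor that was mutated, had 42.7, 51.1 and 45.7 CPM in rs2z35 HS and 234, 217 and 254 CPM in WT HS. Every rs2z35 library lay far below every WT library, in accord with the labels. The log2FC was -2.32 (standard error 0.09, adjusted p = 1.1e-07). A frameshift leaves the gene in place, and reads of it were still counted. The level was similar in the rs2z35 36 HS libraries, with 49.5, 42.7 and 43.2 CPM. At 25 °C, RS2Z35 had 33.9, 32.4 and 31.6 CPM in rs2z35 control and 192, 183 and 204 CPM in WT control, a log2FC of -2.56. The interaction, that is the log2FC in HS minus the log2FC in control fitted on all 24 libraries, was 0.23 (standard error 0.12, adjusted p = 0.702).

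The paralogue RS2Z36 (Solyc09g005980) did not pass the test in rs2z35 HS. It had 116, 128 and 112 CPM in rs2z35 HS and 116, 104 and 126 CPM in WT HS, and the libraries of both genotypes were interleaved. The log2FC was 0.06, with a 95% interval of -0.12 to 0.24 (adjusted p = 0.89). In control, RS2Z36 had 78.5, 78.3 and 68.8 CPM in rs2z35 and 53.2, 55.5 and 64 CPM in WT, a log2FC of 0.39 that did not pass (edgeR, adjusted p = 0.151) although the libraries did not overlap. The 10 tested genes on either side of RS2Z35 in gene-number order had log2FC values between -0.81 and 0.66. None of these 20 neighbours passed at an adjusted p below 0.05 in edgeR, and 3 had an unadjusted p below 0.05.

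Of the 6 called genes that rose, 3 are described as metabolic enzymes or as a transcription factor. Solyc10g084960 is described as a glutathione S-transferase, an enzyme class that joins glutathione to reactive compounds. It had 18.2, 26.5 and 17.3 CPM in rs2z35 HS and 3.66, 3.84 and 3.63 CPM in WT HS, so that the lowest mutant library was well above the highest WT library. Its log2FC was 2.49 (standard error 0.25, adjusted p = 0.00105). Solyc06g009810 is described as the ethylene-responsive transcription factor CRF1, of a family of plant DNA-binding proteins, and had 10.3, 10.8 and 9.37 CPM in rs2z35 HS and 1.90, 2.13 and 1.92 CPM in WT HS. The groups were separated by a wide margin, with a log2FC of 2.37 (standard error 0.24). Solyc05g032690, described as a 3-hydroxyisobutyryl-CoA hydrolase, an enzyme of valine breakdown, had 16.0, 20.7 and 17.4 CPM in rs2z35 HS and 6.17, 5.54 and 5.75 CPM in WT HS. It rose by a log2FC of 1.65 (standard error 0.14).

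The other 3 called rises were smaller, or of genes with less description. Solyc12g049611, an unknown protein, had 4.66, 6.60 and 6.29 CPM in rs2z35 HS and 0.678, 0.781 and 0.753 CPM in WT HS. This was the highest log2FC among the called genes (2.99, standard error 0.27), at a level close to 1 CPM in WT. Solyc12g010655 is described as a Pol polyprotein of the retrotransposon TNT 1-94 and had 12.6, 13.0 and 12.6 CPM in rs2z35 HS and 5.63, 5.26 and 6.03 CPM in WT HS. Its replicates were close to each other in both genotypes, and its log2FC was 1.19 (standard error 0.09). Retrotransposon copies resemble each other, so that the split of reads among them is uncertain. Solyc04g014810, described as a RING-type E3 ubiquitin transferase, a class that marks proteins with ubiquitin, had 81.4, 104 and 96.3 CPM in rs2z35 HS and 45.9, 43.7 and 48.8 CPM in WT HS. It had the highest level of these genes and a log2FC just past the fold threshold (1.04, standard error 0.11).

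**Figure D2:**
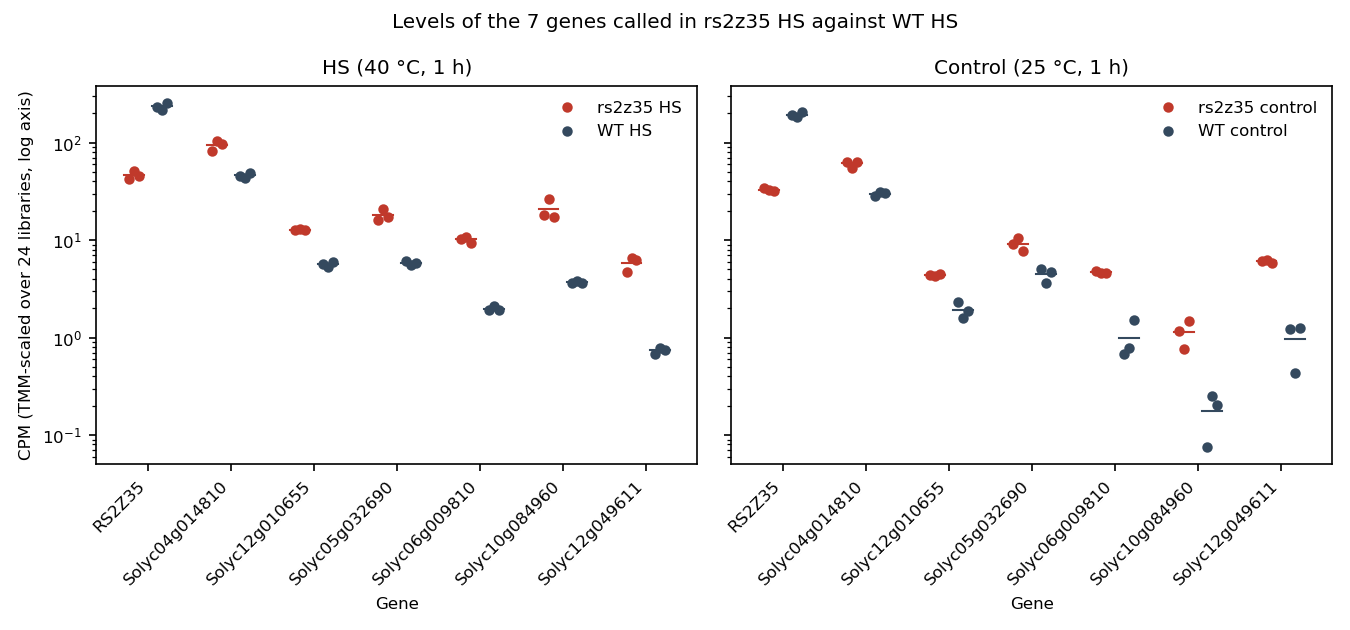
CPM (log axis) of the 7 called genes in every library, rs2z35 left (red) and WT right (blue) for each gene, in HS (left panel) and in control (right panel); horizontal lines are group means. The 3 rs2z35 and the 3 WT libraries do not overlap for any of the 7 genes in HS, and the order of the groups is the same in control.

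The control libraries share no sample with the HS comparison and give a separate measure of the same genes. In rs2z35 control against WT control, 12 of 23532 genes were called (0.051%) and 97 had an adjusted p below 0.05 (0.412%). Leaving out any 1 of the 6 control libraries brought the called genes to 3 to 7. All 7 genes called in HS had the same sign in control, 6 of them at an adjusted p below 0.05 and 4 of them as called genes. These counts include RS2Z35, which is mutated in both conditions. Without it, all 6 genes had the same sign, 5 at an adjusted p below 0.05 and 3 as called genes. Over all tested genes, 52.5% had the same sign in both conditions. Solyc12g049611 had 6.04, 6.28 and 5.80 CPM in rs2z35 control and 1.21, 0.428 and 1.26 CPM in WT control (log2FC 2.66), and Solyc06g009810 had 4.80, 4.54 and 4.64 against 0.681, 0.785 and 1.5 CPM (log2FC 2.25). Solyc04g014810 rose by 1.03 in control, nearly the value in HS. Solyc05g032690 missed the threshold in control, with 9.22, 10.5 and 7.77 CPM in rs2z35 control and 4.99, 3.64 and 4.70 CPM in WT control (log2FC 1.05, adjusted p = 0.052). For none of the 7 genes did the interaction pass at an adjusted p below 0.05 in edgeR, with adjusted p-values of 0.63 and above.

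Solyc10g084960 and Solyc12g010655 also responded to heat itself. Solyc10g084960 had 1.16, 0.770 and 1.48 CPM in rs2z35 control and 0.0757, 0.250 and 0.203 CPM in WT control, and it rose with HS in both genotypes, by a log2FC of 4.18 in rs2z35 and 4.34 in WT. For Solyc12g010655 the rise with HS was 1.55 in rs2z35 and 1.55 in WT. Of the 7 genes, 6 changed with HS in rs2z35 and 5 in WT at an adjusted p below 0.05 in edgeR, and all of these changes were rises. Over all genes, 55.1% changed in rs2z35 and 56.2% in WT, counting rises and falls together.

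The 15 genes that passed only the adjusted p of 0.05 behaved less evenly. In control, 8 of the 15 had the same sign as in HS, 3 of them with an unadjusted p below 0.05 and 1 with an adjusted p below 0.05. The share with the same sign, 53.3%, was close to that of all genes. In addition, these genes passed in only 5 to 8 of 15 other settings of the analysis, in which all of them kept their sign. The 7 called genes passed an adjusted p of 0.05 in 15 of 15. With the replicate number as a block, the 7 called genes passed and none of the 15 did. The settings refit the same libraries on which the groups were split by adjusted p, so this contrast is not separate support.

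Among the rises in this second group, Solyc10g018190, described as a 2-oxoglutarate and Fe(II)-dependent oxygenase, had 12.9, 11.4 and 13.6 CPM in rs2z35 HS and 4.41, 7.17 and 4.04 CPM in WT HS. The WT libraries varied among themselves but stayed below all rs2z35 libraries (log2FC 1.29, adjusted p = 0.048). Solyc11g039890, described as a nucleoporin, a component of the nuclear pore, had 16.8, 19.1 and 17.4 CPM in rs2z35 HS and 10.4, 10.6 and 10.4 CPM in WT HS (log2FC 0.78). In control it had 1.24, 2.23 and 1.44 CPM in rs2z35 and 2.27, 1.89 and 2.72 CPM in WT, so that no rise was seen there, and the interaction of 1.24 had an adjusted p of 0.082. Solyc05g014390, an ABC transporter (a pump driven by ATP), rose by 0.64 and Solyc01g095360, a protein with a calcium-dependent lipid-binding domain, by 0.61. Solyc05g049980, Solyc01g056850 and Solyc02g031920, for which no description was used, rose by 0.76, 0.58 and 0.48. Solyc03g005420 also passed at very low counts and was singled out after its values were seen. It had 39, 33 and 19 reads in the rs2z35 HS libraries and 3, 1 and 0 reads in the WT HS libraries, and its fitted log2FC of 4.19 depends on the prior count.

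Besides RS2Z35, 7 genes fell. Solyc04g078325, described as a cytochrome P450 (a monooxygenase), had 3.32, 4.60 and 3.51 CPM in rs2z35 HS and 13.0, 12.1 and 13.9 CPM in WT HS, a log2FC of -1.75 (standard error 0.26, adjusted p = 0.036). Its groups did not overlap in HS, but in control it had 23.9, 11.1 and 12 CPM in rs2z35 and 19.3, 13.3 and 15.2 CPM in WT, with a log2FC of -0.02. Solyc02g062550, a P-loop nucleoside triphosphate hydrolase, had 2.68, 2.76 and 3.14 CPM in rs2z35 HS and 5.83, 6.89 and 8.90 CPM in WT HS (log2FC -1.32). Solyc02g091250, described as a subunit of Mediator, which links transcription factors to RNA polymerase II, had 3.95, 4.22 and 4.19 CPM in rs2z35 HS and 7.26, 8.59 and 10.2 CPM in WT HS (log2FC -1.06). In control, both had log2FC values above 0 that did not pass the test (0.24 and 0.31).

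The 4 remaining falls were below 2-fold. Solyc04g007490, described as a disease resistance protein, fell by 0.80 on the log2 scale, Solyc04g072800, a phosphoglycerate mutase of glycolysis, by 0.70, Solyc11g069050, a 4-coumarate-CoA ligase-like protein related to phenylpropanoid enzymes, by 0.63, and Solyc02g082430, with no description used, by 0.55. Solyc11g069050 was the gene of this group that also passed in control, with 21.3, 23.7 and 24.6 CPM in rs2z35 and 37.0, 36.6 and 30.6 CPM in WT (log2FC -0.58, adjusted p = 0.024). For Solyc02g082430 the opposite was measured: 9.25, 10.2 and 9 CPM in rs2z35 HS and 14.8, 13.9 and 13.6 CPM in WT HS, but 25.9, 27.0 and 24.7 CPM in rs2z35 control and 24.4, 26.4 and 27.4 CPM in WT control. It was the only one of the 22 genes whose interaction passed (-0.56, adjusted p = 0.047, edgeR's quasi-likelihood test on 24 libraries).

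**Figure D3:**
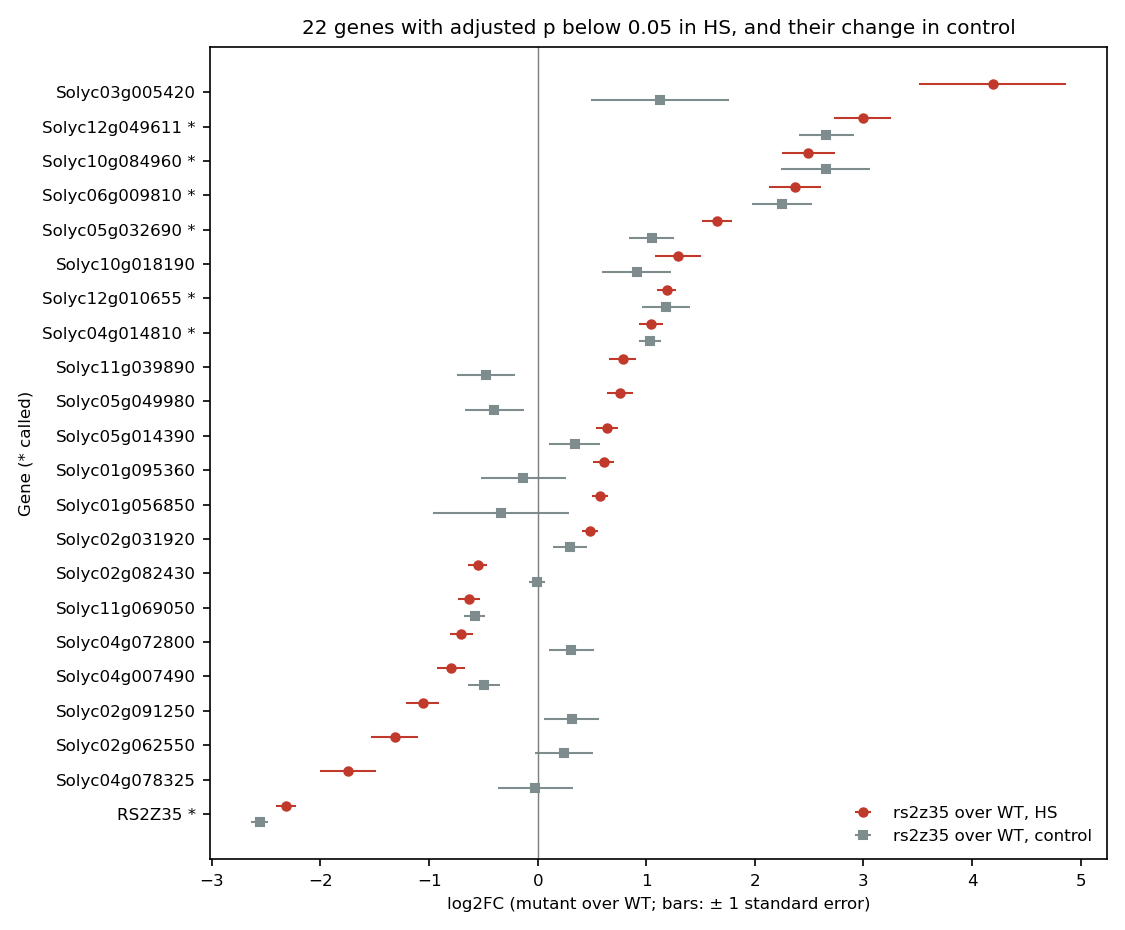
log2FC of rs2z35 over WT with ± 1 standard error for the 22 genes with an adjusted p below 0.05 in HS, in HS (red circles) and in control (grey squares); stars mark the called genes. The called genes have similar values in both conditions, such as 2.37 and 2.25 for Solyc06g009810, whereas several of the others lie near 0 or on the other side in control.

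The HS comparisons of the other mutants use the same WT libraries, so their values for the 22 genes are given side by side only. In rs2z36 HS, 33 genes were called (0.142%) and 334 had an adjusted p below 0.05 (1.44%). In rs2z35 36 HS, 44 were called (0.19%) and 405 passed 0.05 (1.75%). Of the 7 genes, 2 were also called in rs2z36 HS and 6 in rs2z35 36 HS. RS2Z35 is among the 6, since rs2z35 36 carries the same mutation. At an adjusted p below 0.05 in edgeR, 5 of the 7 genes passed with the same sign in rs2z36 HS and 7 in rs2z35 36 HS. Most of the called rises were thus not particular to rs2z35 beside the shared WT libraries. Solyc10g084960 had log2FC values of 2.49 in rs2z35, 2.29 in rs2z36 and 2.50 in rs2z35 36, and Solyc12g049611 had 2.99, 2.79 and 2.46.

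Direct contrasts between mutants avoid the shared WT libraries, though they share the rs2z35 HS libraries with the WT comparison. Between rs2z35 HS and rs2z36 HS, 35 genes were called (0.151%) and 245 passed 0.05 (1.06%), with 9 to 24 called when 1 library was left out. RS2Z35 and Solyc05g032690 were the 2 of the 7 genes called here. Solyc05g032690 had 16.0, 20.7 and 17.4 CPM in rs2z35 HS and 3.79, 4.23 and 4.36 CPM in rs2z36 HS, so that it was high in rs2z35 and not in rs2z36 (log2FC 2.13, adjusted p = 1.3e-05). Its level in rs2z35 36 HS, 14.6, 10.2 and 12.2 CPM, lay between them, below rs2z35 HS (log2FC of rs2z35 over rs2z35 36 0.55, adjusted p = 0.048). Solyc12g010655 was higher in rs2z35 HS than in rs2z36 HS too, with a log2FC of 0.45 (adjusted p = 0.031).

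Of the 22 genes, the oxygenase gene Solyc10g018190 had the largest fold between the mutants. It had 12.9, 11.4 and 13.6 CPM in rs2z35 HS, 1.78, 1.12 and 1.11 CPM in rs2z36 HS and 1.07, 1.18 and 1.68 CPM in rs2z35 36 HS, with WT HS in between at 4.41, 7.17 and 4.04 CPM. Thus, it was above WT in rs2z35 and below WT in both genotypes that carry the rs2z36 mutation. The log2FC of rs2z35 was 3.24 over rs2z36 (adjusted p = 6.7e-05) and 3.26 over rs2z35 36 (adjusted p = 2.3e-04).

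Between rs2z35 HS and rs2z35 36 HS, 34 genes were called (0.147%) and 501 passed 0.05 (2.16%), with 8 to 14 called when 1 library was left out. None of the 7 genes was called in this contrast in edgeR, and 1 of them, Solyc05g032690, had an adjusted p below 0.05. The 6 others had log2FC values of rs2z35 over rs2z35 36 between -0.10 and 0.53. Solyc01g056850 was lower in rs2z35, with 40.4, 41.8 and 41.6 CPM in rs2z35 HS and 66.5, 61.7 and 61.8 CPM in rs2z35 36 HS, against 28.4, 26.0 and 29.6 CPM in WT HS (log2FC of rs2z35 over rs2z35 36 -0.61, adjusted p = 0.0018). Its control libraries, which had no batch adjustment, varied far more. The control means were 24.8 CPM (standard deviation 10.9) in rs2z35, 20.1 (10.6) in rs2z35 36 and 31.6 (19.0) in WT. With edgeR fitted on all 24 libraries, its adjusted p in rs2z35 HS against WT HS was 0.83. The Mediator gene Solyc02g091250 had 3.95, 4.22 and 4.19 CPM in rs2z35 HS and 9.84, 7.87 and 6.99 CPM in rs2z35 36 HS (log2FC of rs2z35 over rs2z35 36 -0.99, adjusted p = 0.0091). Its fall was therefore seen in the single mutant and not in the double mutant.

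**Figure D4:**
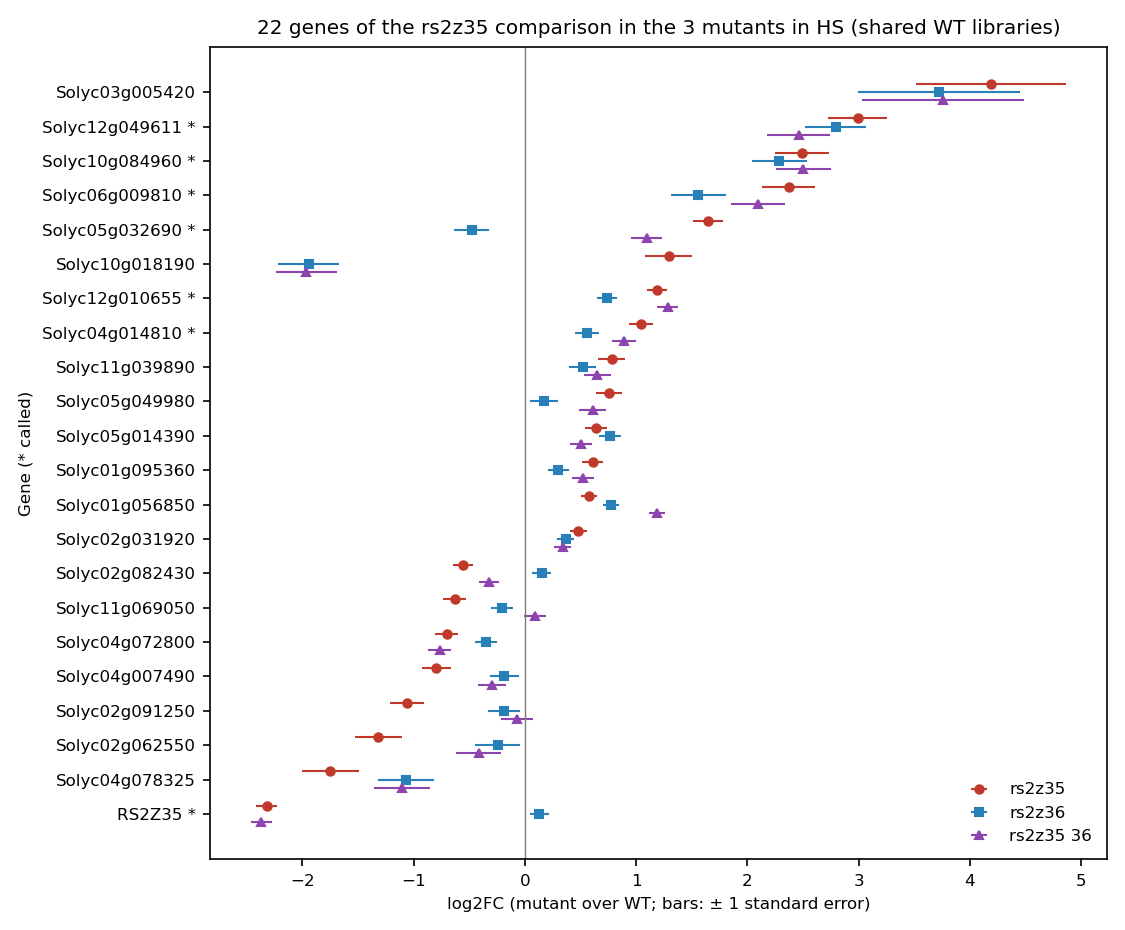
log2FC over WT HS with ± 1 standard error for the same 22 genes in rs2z35 (red circles), rs2z36 (blue squares) and rs2z35 36 (purple triangles), all against the same 3 WT HS libraries. Solyc10g018190 lies at 1.29 in rs2z35, -1.94 in rs2z36 and -1.96 in rs2z35 36, and Solyc05g032690 lies at 1.65 in rs2z35, -0.48 in rs2z36 and 1.09 in rs2z35 36.

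The heat shock response itself was then examined. HSFA2 (Solyc08g062960), a transcription factor that maintains the heat response, had 2805, 4420 and 3001 CPM in rs2z35 HS and 4413, 3379 and 4407 CPM in WT HS. Replicates 1 and 3 of rs2z35 lay below all WT libraries and replicate 2 above all of them, so that the groups overlapped. The log2FC was -0.24 with a 95% interval of -0.65 to 0.17 (adjusted p = 0.77). HSFA2 rose with HS by 7.07 in rs2z35 and 7.34 in WT. The 2 other described heat shock factors, Solyc09g065660 and Solyc02g072000, had log2FC values of -0.31 and -0.19 in rs2z35 HS against WT HS (adjusted p = 0.68 and 0.84).

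Of 49 described heat shock proteins and co-chaperones, none passed at an adjusted p below 0.05 in edgeR or DESeq2, and 2 had an unadjusted p below 0.05 in edgeR, both with values lower in rs2z35. The list had 37 log2FC values below and 12 above 0, with a median of -0.13, beside a median of 0.01 for all tested genes. The median was -0.08 without replicate 1 of rs2z35 HS, -0.17 without replicate 2 of rs2z35 HS and -0.02 with the shrunken fold changes of apeglm. Descriptions were taken from a table of WT changes that is used in part, and 29 of the 49 also stand in a table of genes that the authors selected on these samples. The 20 members outside that table had 9 values below and 11 above 0, with a median of 0.03, so the direction of the whole list is not independent evidence. These 20 are no matched counterpart, since they are what the authors' selection left over. In rs2z35 HS they summed to 7460 to 8806 CPM, beside 246270 to 299728 CPM for all 49. With total counts in place of TMM, the median of the 49 was -0.05 with 32 values below 0. Reads of the list made up 20.9%, 23.2% and 21.2% of all counts in rs2z35 HS and 23.9%, 22.6% and 23.5% in WT HS. The groups overlapped through replicate 2 of rs2z35 HS. The highest expressed members, Solyc03g117630 (a 70 kDa heat shock protein) and Solyc06g036290 (heat shock protein 90), had log2FC values of -0.21 and -0.20. For 47 of the 49 members the 95% interval lay within -1 and 1. All 27 members that rose by a log2FC above 6 in WT had values below 0, from -0.32 to -0.04. These 27 were picked with the same WT HS libraries, so their shared direction is not independent evidence either.

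In both genotypes 44 of the 49 members rose with HS at an adjusted p below 0.05 in edgeR. In WT 5 members fell and in rs2z35 4 fell. Over all genes, 56.2% changed with HS in WT and 55.1% in rs2z35, rises and falls together. The members were drawn from the authors' WT changes between HS and control in the same libraries. The count in WT is therefore no separate evidence of a heat response. The median log2FC of HS over control in the list was 8.13 in rs2z35 and 8.93 in WT. In the control libraries, 18 of the 49 members were higher in rs2z35 and none lower at an adjusted p below 0.05 in edgeR, with a median log2FC of 0.60, beside 0.00 for all genes, of which 0.297% were higher. All 18 are among the 29 members in the authors' table, so that their direction is not independent evidence. The 20 members outside it, which are no matched counterpart, had a median of 0.01. For example, Solyc03g117630 had 52.6, 69.2 and 51.6 CPM in rs2z35 control and 32.0, 27.7 and 27.9 CPM in WT control, beside 31997, 27481 and 31357 CPM in WT HS. The 27 members that rose by a log2FC above 6 in WT reached, as a median per library, 2.26, 2.76 and 2.21 thousandths of their own HS mean in rs2z35 control and 1.20, 1.10 and 1.07 thousandths in WT control. A weak induction in the plants and a small share of reads from HS libraries cannot be told apart from these counts.

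**Figure D5:**
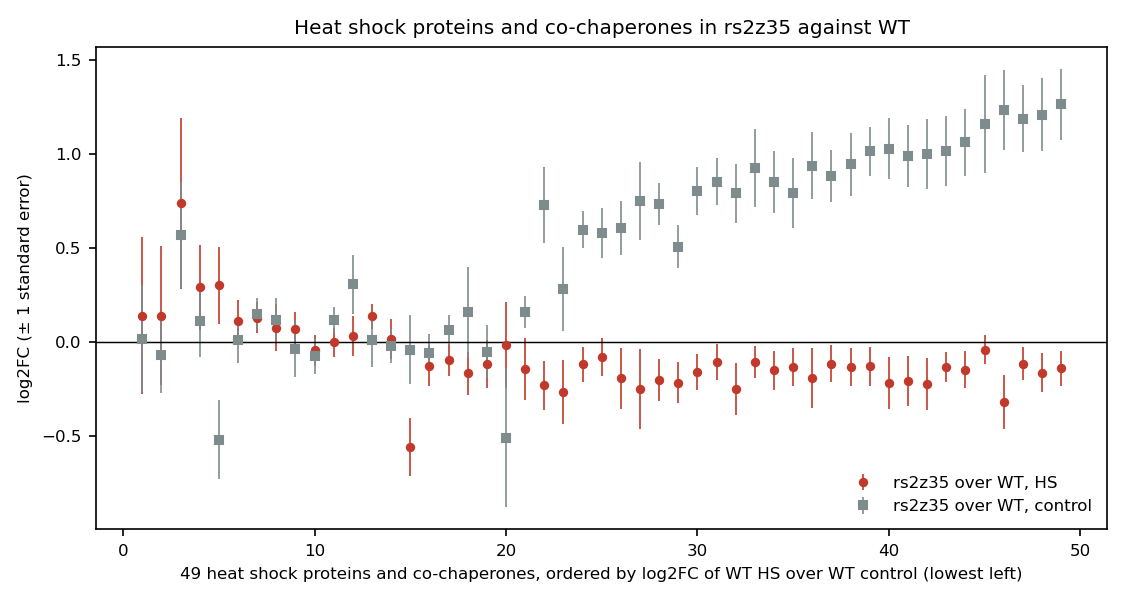
log2FC of rs2z35 over WT with ± 1 standard error for 49 heat shock proteins and co-chaperones in HS (red circles) and in control (grey squares), ordered by their log2FC of WT HS over WT control. In HS the values stay near 0 (median -0.13); in control they are higher towards the right, where the order and the control values share the WT control libraries.

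The interaction of genotype and HS was called for 3 of 24583 genes (0.0122%), and 30 had an adjusted p below 0.05 (0.122%). Of these 30, 28 had a negative interaction and 17 belong to the 49 heat shock proteins and co-chaperones, which make up 0.199% of the tested genes. All 17 stand in the authors' table of genes selected on these samples. The median interaction of the 20 members outside it, again no matched counterpart, was -0.01. Solyc07g064560, described as a protein with an AT hook, a motif that binds AT-rich DNA, had 28.6, 30.4 and 21.5 CPM in rs2z35 HS and 28.8, 28.0 and 22.1 CPM in WT HS. In control it had 40.4, 34.1 and 40.8 CPM in rs2z35 and 9.99, 9.53 and 7.18 CPM in WT. Hence, a 4-fold difference at 25 °C (log2FC 2.11, adjusted p = 1.7e-04) was not seen after HS (log2FC 0.05, 95% interval -0.34 to 0.43). The interaction was -2.08 (standard error 0.26, adjusted p = 0.0016). Without 1 library, 0 to 3 genes were called for the interaction, and Solyc07g064560 had an adjusted p of at most 0.013 in every alternative. The count was 0 without WT HS replicate 1 and also without WT control replicate 3. HS counts had been adjusted by the authors and control counts had not, so the interaction sets adjusted against unadjusted counts.

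The other gene lists held few members, since only 2387 of the tested genes had a description. Neither of the 2 SR genes outside RS2Z36 nor any of 5 other spliceosome proteins had an unadjusted p below 0.05, with log2FC values between -0.21 and 0.06. SR34 (Solyc01g099810) had 23.5, 42.5 and 17.4 CPM in rs2z35 HS and 37.6, 27.1 and 31.8 CPM in WT HS, with the WT libraries inside the range of the mutant. Among 9 reactive oxygen scavengers and 9 ethylene-related genes, 1 each rose, the called genes Solyc10g084960 and Solyc06g009810, and none fell. Both stand in the table of genes that the authors selected on these samples. Among 16 wound and jasmonate genes, 5 photosystem and Rubisco genes, 5 pathogenesis-related genes, 6 auxin genes and 1 clock gene, none passed at an adjusted p below 0.05 in edgeR or DESeq2, and 2, 0, 0, 0 and 0 had an unadjusted p below 0.05. The median log2FC of these 5 groups was -0.21, 0.10, 0.10, -0.22 and -0.22.

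Of 11 abscisic acid genes, which act in the response to drought, 8 had values below 0 and 3 had an unadjusted p below 0.05, all 3 lower in rs2z35 HS (4.15% of all genes were lower at that p), but none passed the adjustment in edgeR or DESeq2. Their summed level was 418 to 467 CPM in rs2z35 HS and 530 to 556 CPM in WT HS and did not overlap. The gap lay mostly in 1 member, Solyc01g095150, described as a late embryogenesis-like protein, which had 166, 206 and 201 CPM in rs2z35 HS and 268, 269 and 273 CPM in WT HS. Its log2FC of -0.48 had an adjusted p of 0.515, and its libraries did not overlap, as for 14.4% of all genes. Solyc01g079590, the next in level, had 206, 218 and 207 CPM in rs2z35 HS and 211, 199 and 221 CPM in WT HS, and the genotypes could not be distinguished.

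The HS counts were deposited after ComBat-Seq, a batch adjustment of counts, and in them the mean square of the replicate number was a median of 0.00116 times the residual, against 0.846 in control. The spread between HS replicates is thus that after adjustment. The fit without a block takes no account of the variance that was taken out, so its HS p-values are likely too small. With the replicate number as a block in the edgeR fit, 7 genes had an adjusted p below 0.05, beside 22 without the block. At an unadjusted p below 0.05 there were 1087 genes, beside 1983. The effect of ComBat-Seq itself, on unadjusted HS counts, was not tested. The choice of test also changed the lists: DESeq2 called 18 genes, 8 higher and 10 lower in rs2z35, including all 7. The 11 added genes had mean levels of 0.953 to 14.1 CPM, and 5 of them passed an adjusted p of 0.05 in edgeR. At an adjusted p below 0.05, DESeq2 gave 20 higher and 51 lower genes, edgeR with the size factors of DESeq2 gave 11 and 11, and edgeR with TMM gave 14 and 8. The balance of rises and falls among weakly changed genes therefore depended on scaling and test, whereas the 7 called genes kept an adjusted p below 0.05 in all 15 alternatives.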

How the data were processed

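The authors mapped reads with STAR to the SL4.0 tomato genome (ITAG4.0 annotation) and counted them per gene with htseq-count 0.9.1. They deposited these counts, after ComBat-Seq for the HS libraries. The batch variable is not given in the sources used here. Groups and replicate numbers came from the sample labels. Tests used edgeR 4.0.16 (R 4.3.3). Genes under 10 reads in sum were left out, libraries were scaled by TMM, and the quasi-likelihood test was run on the 12 libraries of a condition (24 for the interaction and for HS against control), with Benjamini-Hochberg adjustment over all genes. CPM use TMM factors of all 24 libraries, except for the distances between libraries, which use those of the 12 HS libraries. The standard error is the log2FC over the square root of F. DESeq2 1.42.0, apeglm 1.24.0, other scalings, filters and sets of libraries were alternatives.

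Genes named were RS2Z35, RS2Z36 and HSFA2, all called genes, up to 10 rises and 10 falls with an adjusted p below 0.05, a mean of at least 1 CPM and no overlap, the 2 highest members of each list and up to 4 of its members that passed and the 2 smallest interaction p-values; exceptions are stated. Members and lists were chosen with earlier results of these data known. Lists were built from words in the descriptions of 1999 genes among the study's WT changes. Descriptions used for naming covered 2404 genes. Lists on nonsense-mediated decay and on galactinol synthesis had 0 described members. On simulated counts, 200 genes with a log2FC of 2 were recovered to 100% with 0 false calls over 22966 genes in HS. In the interaction they were recovered to 95% with 4 false calls over 24415 genes. At an adjusted p below 0.05, 4 and 13 unchanged genes passed in edgeR. Changed genes were drawn above a floor of mean counts, and every gene had the same preset dispersion. No batch or replicate effect was simulated, so this checks the code and does not measure power on the real counts. Start and end positions of genes and sequences were not used here.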

Additional observations from a re-analysis of the deposited data

Results flagged for a closer look

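For 3 genes the difference between rs2z35 and WT was not the same in HS and in control by the test of the interaction itself (edgeR's quasi-likelihood test on 24 libraries with Benjamini-Hochberg adjustment). The AT hook gene Solyc07g064560 had an interaction of -2.08, with a log2FC of 0.05 in HS and 2.11 in control. Its control mean was above that of WT in rs2z36 and rs2z35 36 too. The small heat shock protein Solyc11g020330 had an interaction of -1.41 (adjusted p = 0.0061), with 3758, 4086 and 3940 CPM in rs2z35 HS, 4417, 4264 and 4432 CPM in WT HS, 7.13, 9.09 and 7.60 CPM in rs2z35 control and 3.44, 3.68 and 2.80 CPM in WT control. The class II small heat shock protein Solyc08g062340, which was singled out after its values were seen, had an interaction of -1.15, with a log2FC of -0.13 in HS and 1.01 in control. Without replicate 1 of rs2z35 HS, the adjusted p of the interaction was 0.0503 for Solyc11g020330 and 0.0556 for Solyc08g062340. Both heat shock protein genes belong to the list whose control levels lay at a few thousandths of those in HS. Solyc11g020330 had control means of 9.65 CPM in rs2z36 and 7.41 CPM in rs2z35 36, against 3.31 CPM in WT. Its higher control level was thus not particular to rs2z35.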

How the results depend on the processing

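The 7 called genes kept their direction and an adjusted p below 0.05 in all 15 alternatives, with adjusted p-values of at most 0.023; of the 15 other genes, each lost it in 7 to 10. The count of called genes was 18 with DESeq2 and 17 with apeglm, and 4 to 7 without 1 library, the 4 being reached without each WT HS library in turn. Genes with an adjusted p below 0.05 numbered 71 with DESeq2 with and without apeglm, 9 in a fit of the 6 libraries alone, and 7 to 13 without 1 library, 13 without replicate 2 of rs2z35 HS. DESeq2 gave 77 called genes in control, 39 for the interaction, 78 against rs2z36 and 113 against rs2z35 36, and leaving out 1 library gave 3 to 7, 0 to 3, 9 to 24 and 8 to 14. With the replicate number as a replicate block, 6 genes were called in HS and 7 had an adjusted p below 0.05, and 0 were called for the interaction (1332 at an unadjusted p below 0.05), 9 against rs2z36 and 5 against rs2z35 36. The numbers were not taken to pair the samples. In control, same-numbered libraries had correlations of their deviations between -0.43 and 0.53; those in HS, -0.61 to -0.03, do not bear on it, since the variance of the replicate number was nearly absent from the adjusted counts. Genes at an unadjusted p below 0.05 in HS numbered 1087 with the block, 1319 without replicate 3 of WT HS and 1338 without replicate 1 of rs2z35 HS, beside 1983. The share of rises among genes with an adjusted p below 0.05 was 63.6%, 50.0% with the size factors of DESeq2 and 28.2% with DESeq2. No named gene that passed had the opposite sign in an alternative. Genes below 1 CPM were limited by depth.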
